A study of Mus musculus with 6 samples.

Results

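Distal convoluted tubule cells were taken as the barcodes that carried at least 3 UMIs of Slc12a3, the thiazide-sensitive NaCl cotransporter, under limits that kept other cell types out. A barcode also needed at least 200 genes, at most 50% mitochondrially encoded UMIs, under 2 UMIs of Slc12a1, under 3 of Atp6v1g3 and Atp6v0d2 together, and at most 5 of C1qa, C1qb and C1qc together. This gate held 823 of the 23578 barcodes that met the limits on genes and mitochondrial UMIs, or 3.49%, and 25978 barcodes were deposited in all. The members were thus chosen by the UMIs of these 7 genes. Those with enough UMIs stayed in the fit over all genes, but their levels are given as a description and no result rests on them.

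The kidneys came from 6 C57BL/6 mice, 1 library a mouse. In every mouse 1 ureter had been tied off (unilateral ureteral obstruction), and the kidneys were taken after 7 days. In the first group, 3 mice were treated with SH045, known as an inhibitor of the cation channel TRPC6, and in the second, 3 mice received Vehicle. Age, sex, dose and route were not in the labels used here, contralateral kidneys and spatial sections were not analysed here, and the obstruction itself could therefore not be compared with an unobstructed kidney.

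The distal convoluted tubule lies between the thick ascending limb of Henle's loop and the connecting tubule. Its cells take up NaCl from the urine through the product of Slc12a3 under control of WNK kinases and their partners Stk39 and Oxsr1, take up magnesium through Trpm6, and in the late segment take up calcium through Trpv5, the calcium-binding proteins encoded by Calb1 and S100g, and the exchanger encoded by Slc8a1. Late cells also respond to aldosterone, which acts on the epithelial sodium channel encoded by Scnn1a, Scnn1b and Scnn1g.

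The gate took 138, 220 and 100 barcodes from SH045 replicates 1, 2 and 3, and 72, 200 and 93 from Vehicle replicates 1, 2 and 3. Of the kept barcodes of each library this was 4.04%, 5.52% and 2.76% with SH045 and 1.74%, 4.69% and 2.25% with Vehicle. The groups overlapped: the mean share was 4.10% ± 1.38 against 2.89% ± 1.58 (SD, n = 3 mice a group, as for every mean here), and the difference missed the threshold (p = 0.4, two-sided exact permutation test, smallest possible p 0.1). As a share of the barcodes in the gates of the distal convoluted tubule, thick ascending limb and principal cells, the order was the opposite, 41.8% ± 3.59 against 46.0% ± 2.44 (p = 0.2, exact permutation test). The share of principal cells among kept barcodes was 3.29% ± 1.13 against 0.883% ± 0.157, and its groups did not overlap (p = 0.1, exact permutation test). All these shares are of barcodes that survived dissociation and the filter on mitochondrial UMIs, which removed 12.4% ± 3.56 of barcodes with SH045 and 4.34% ± 0.873 with Vehicle. They cannot be read as numbers of cells in the kidney.

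Depth in the gated barcodes moved with the group. The median barcode held 6591.5, 6610 and 5479 UMIs with SH045 and 7513, 8967.5 and 9513 with Vehicle, so every SH045 library was shallower (p = 0.1, exact permutation test). The sums over gated barcodes ran from 675227 to 2134289 UMIs a library. Median mitochondrial shares of gated barcodes overlapped, at 8.42% ± 1.45 against 8.59% ± 1.38. No barcode was removed as a doublet, and 21 of the 823 lay in the top 5% of doublet scores of their library. Barcode sequences were shared between libraries: SH045 replicates 1 and 2 had 52 in common, other pairs 6 to 20, and 18 gated barcodes carried a shared sequence. At the edge of the gate, 66 members held exactly 3 Slc12a3 UMIs, and 98 barcodes outside it met every other limit with 2. The limit on intercalated-cell genes kept out 52 of the 914 kept barcodes with 3 or more Slc12a3 UMIs, the limit on C1q genes 32 and the limit on Slc12a1 8.

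The promoters of both broad markers and of the transcription factor that differed between the groups (Gata3, described further on) are shown because GATA motifs are the letters a factor of that family reads. Each sequence is the 250 bases before a RefSeq transcript start, 5′ to 3′ on the strand of the gene, in GRCm38.p6, with AGATAA or TGATAA on either strand in capitals. Slc12a3 lies on the plus strand at chr8:94328958-94329207, Tmem52b on the plus strand at chr6:129512307-129512556, and Gata3 on the minus strand at chr2:9878601-9878850.
Slc12a3: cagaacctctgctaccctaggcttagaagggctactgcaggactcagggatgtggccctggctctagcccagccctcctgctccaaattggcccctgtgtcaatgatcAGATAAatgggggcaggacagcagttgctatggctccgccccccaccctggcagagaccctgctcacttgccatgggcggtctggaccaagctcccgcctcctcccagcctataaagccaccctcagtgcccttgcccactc
Tmem52b: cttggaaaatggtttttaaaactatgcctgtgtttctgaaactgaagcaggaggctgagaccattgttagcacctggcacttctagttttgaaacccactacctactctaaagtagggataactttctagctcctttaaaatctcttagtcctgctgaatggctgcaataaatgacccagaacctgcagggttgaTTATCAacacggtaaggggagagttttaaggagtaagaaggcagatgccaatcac
Gata3: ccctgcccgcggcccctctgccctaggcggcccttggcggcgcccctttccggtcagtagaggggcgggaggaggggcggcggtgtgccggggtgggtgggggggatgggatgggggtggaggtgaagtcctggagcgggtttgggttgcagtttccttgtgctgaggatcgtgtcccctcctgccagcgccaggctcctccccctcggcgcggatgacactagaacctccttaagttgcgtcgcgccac
AGATAA or its reverse complement TTATCT occurred in 9.99% of the 32851 promoter windows of this length, and TGATAA or TTATCA in 7.94%, and both motifs share the letters GATAA. Slc12a3 held 1 match of AGATAA and Tmem52b 1 of TGATAA, while the Gata3 window held neither. The 13 windows of genes that were higher with SH045 came from 8 genes, and several were alternative starts of Sox6. Of these windows, 1 (Sox6) held AGATAA and 0 held TGATAA. These matches describe letters in a short window and not sites of binding.

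Of the 4 genes that mark the cell type, Slc12a3 and Tmem52b were present throughout, Calb1 in a minority, and Pvalb was nearly absent. Slc12a3 stood at 1850, 1904 and 1925 CPM (UMIs of the gene per 1000000 of the gated sum, after TMM scaling) with SH045 and at 1362, 1644 and 1334 CPM with Vehicle, levels that the gate shaped. Its median over barcodes was 9 to 13 UMIs by library. Tmem52b, which encodes a small membrane protein of distal nephron cells, had a UMI in 802 of 823 barcodes (97.4%). The principal cell gate held it in 84.1% of barcodes and the thick ascending limb gate in 41.5%, so it did not mark this gate alone. Its level here was 2887, 4184 and 3320 CPM with SH045 and 4020, 2681 and 3171 CPM with Vehicle, so that the groups overlapped. UMIs of tubule genes occurred in other barcodes as well, and whether these come from free RNA, doublets or debris was not tested: among 10081 macrophage barcodes, 3.03% had a UMI of Tmem52b and 0.734% one of Calb1, at a median of 3570 UMIs a barcode.

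Pvalb encodes parvalbumin, the calcium-binding protein of the early distal convoluted tubule. It had 4 UMIs in 2 of the 823 barcodes (0.243%) and 0 in all other kept barcodes of the 6 libraries together. Pvalb, a marker of the label, was thus nearly absent in these obstructed kidneys, and Calb1 was more frequent in the principal cell gate (76.3% against 27.0% here). The cells are described by Slc12a3, which chose them, and by Tmem52b, which most barcodes of the principal cell gate held too. Trpm6, the magnesium channel of this segment, was present: it had a UMI in 195 barcodes (23.7%), against 1.73% of the thick ascending limb gate, 4.19% of the principal cell gate and 0.0893% of macrophage barcodes.

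**Figure D1:**
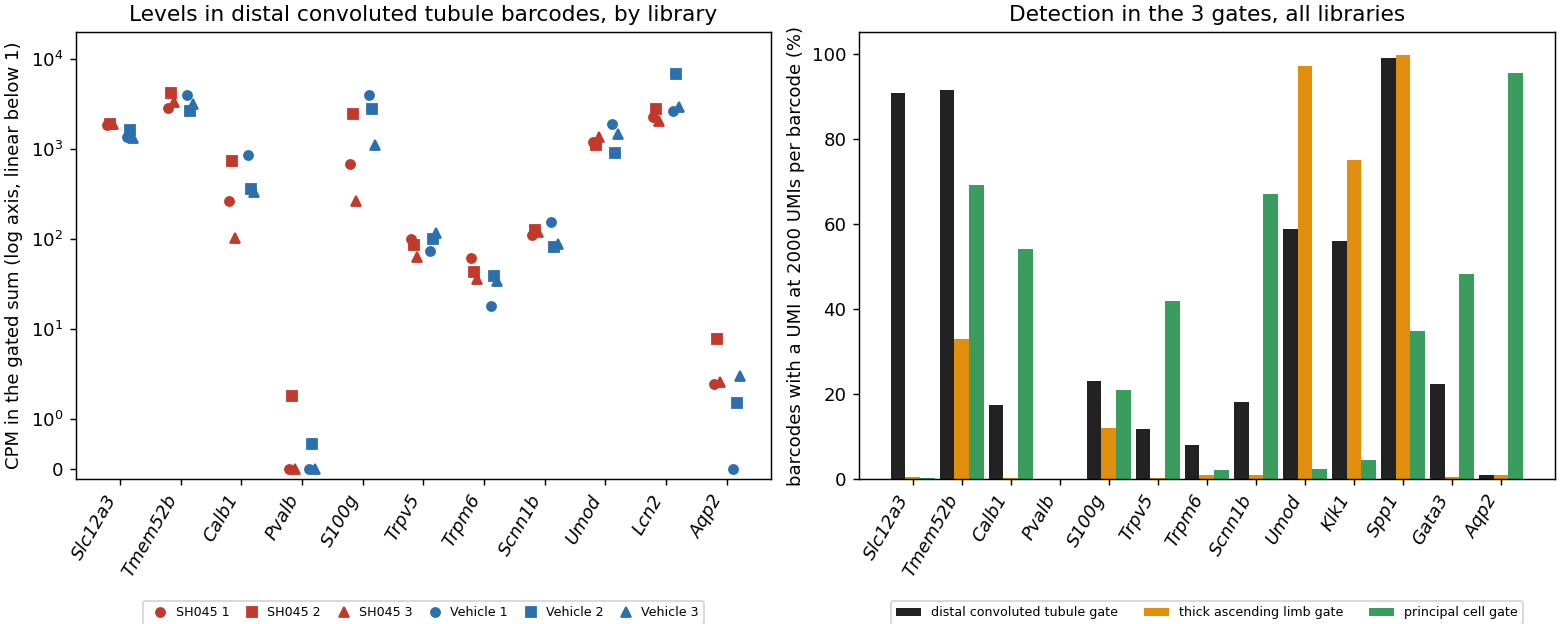
Left, level of 11 genes in the summed distal convoluted tubule barcodes of each library, in CPM on a log axis that is linear below 1 (colour, group; symbol, replicate). Right, percent of barcodes with a UMI after thinning to 2000 UMIs in 3 gates over all libraries. Slc12a3 and Tmem52b are high in every library, Pvalb lies at or near 0 in all 6, and Aqp2, which marks principal cells, stays below 8 CPM.

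Calb1 marked a subset. It had a UMI in 222 of 823 barcodes (27.0%), from 20% in SH045 replicate 3 to 30% in SH045 replicate 2. Its level was 268, 738 and 104 CPM with SH045 and 855, 358 and 330 CPM with Vehicle, which overlapped, and few barcodes carried much of it: in Vehicle replicate 1 the 3 highest barcodes held 83.4% of its Calb1 UMIs. After thinning every barcode to 2000 UMIs, 143 barcodes (17.4%) held Calb1. Of these, 74.8% also held S100g, the vitamin D-dependent calcium-binding protein calbindin-D9k, against 12.1% of the barcodes without Calb1. The share was higher with Calb1 in 6 of 6 libraries. Trpv5, the apical calcium channel, was found in 32.2% against 7.35% and also higher in 6 of 6 libraries. Scnn1g, the gamma subunit of the sodium channel, was found in 21.7% against 3.53%, higher in 6 of 6. Hsd11b2, the enzyme that shields the aldosterone receptor from glucocorticoids, was found in 25.2% against 9.85%, higher in 5 libraries and lower in none. Slc8a1 was found in 18.9% against 2.79%, higher in 5 of 6.

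In the opposite direction, Umod, the urinary glycoprotein uromodulin of the thick ascending limb, was found in 46.9% of thinned barcodes with Calb1 and in 61.2% without, lower in 5 of 6 libraries. Lcn2, a secreted iron-carrier protein that injured distal tubules make, was found in 43.4% against 66.3%, lower in 5 of 6. Slc12a3 itself was found in 93.0% and 90.3%. The barcodes with and without Calb1 had median depths of 7146 and 7316 UMIs before thinning, and no test was made on this split. Connecting tubule cells carry S100g, Trpv5 and Scnn1g as well, and the share of Calb1 barcodes that joins this neighbouring segment was not tested. Without thinning, Calb1 was found in 76.3% of the principal cell gate and in 27.0% of this gate. Trpv5 (69.2% against 23.6%), Scnn1g (76.7% against 17.4%), Hsd11b2 (98.3% against 26.6%) and Slc8a1 (18.9% against 14.2%) were also more frequent in principal cells. S100g went the other way, at 27.5% against 32.2%. The share of Calb1 barcodes that joins principal cells was not tested either. The principal cell gate asked for at least 3 Aqp2 UMIs and set no limit on connecting tubule genes. In it, 5 connecting tubule markers (Calb1, S100g, Trpv5, Slc8a1 and Scnn1b) summed to 1999 to 4148 CPM with SH045 and 1706 to 3198 CPM with Vehicle. The share of connecting tubule cells in that gate was not tested.

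**Figure D2:**
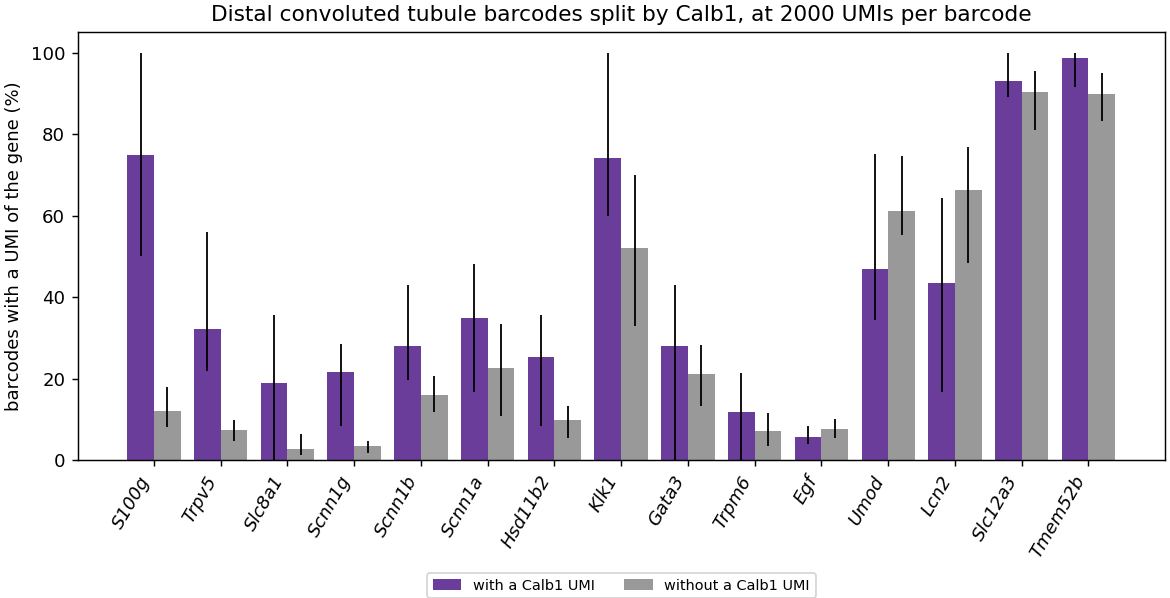
Percent of the 823 distal convoluted tubule barcodes with a UMI of each gene, split by whether the barcode held a Calb1 UMI, after thinning to 2000 UMIs. Bars give all libraries pooled and black lines the lowest and highest library. S100g, Trpv5 and Scnn1g are found more often with Calb1 in 6 of 6 libraries, while Umod and Lcn2 are found less often in 5 of 6.

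Umod was widespread in the gate. It had a UMI in 655 of 823 barcodes (79.6%) and stood at 900 to 1902 CPM by library, although barcodes with 2 or more Slc12a1 UMIs had been left out. In the thick ascending limb gate 98.3% of barcodes held Umod, in the principal cell gate 8.39% and among macrophage barcodes 4.71%. Klk1, a secreted kallikrein of the late distal nephron, was found in 68.4% of gated barcodes, 82.0% of the thick ascending limb gate and 8.81% of the principal cell gate. Egf, the growth factor of the thick ascending limb and distal convoluted tubule, was found in 18.6%, against 67.9% in the thick ascending limb gate.

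A pair of injury genes were abundant in the gate. Spp1, the secreted phosphoprotein osteopontin, had a UMI in 817 of 823 barcodes and stood at 15795, 13597 and 16811 CPM with SH045 and at 14350, 21328 and 13490 CPM with Vehicle. Lcn2 had a UMI in 596 barcodes (72.4%) and stood at 2289, 2800 and 2063 CPM with SH045 and at 2653, 6909 and 2963 CPM with Vehicle, with Vehicle replicate 2 far above the rest. The groups overlapped for both. Macrophage barcodes held Spp1 at 669 CPM and Lcn2 at 111 CPM. Havcr1, the injury marker of proximal tubules, was low, at 11.1 to 44.2 CPM.

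SH045 was compared with Vehicle on UMI counts summed per mouse, with edgeR's quasi-likelihood test and Benjamini-Hochberg adjustment over all 8888 genes that passed the low-count filter. At an adjusted p under 0.05, 15 genes differed (0.169% of those tested), 10 higher (0.113%) and 5 lower (0.0563%) with SH045. In all 15 the libraries of the groups did not overlap, as was so for 26.4% of all genes tested. The unadjusted p was under 0.05 for 1753 genes (19.7%), 859 of them higher (9.66%) and 894 lower (10.1%). The number of adjusted calls rested on single libraries. It was 0 without SH045 replicate 1, without SH045 replicate 3 or without Vehicle replicate 3, 18 without SH045 replicate 2, 43 without Vehicle replicate 1 and 34 without Vehicle replicate 2. No gene of the 15 kept its call in more than 3 of these 6 fits. With barcodes of shared sequence left out there were 15 calls, 14 of them among the same genes.

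Log2 changes moved with the length of the transcript. Across the 8885 genes with a length, Spearman's rho between the log2 change and the length of the longest annotated transcript was 0.56, a value across genes and not across independent samples. The median log2 change was -0.36 in the shortest of 10 equal bins of genes by length and 0.42 in the longest bin, beside -0.01 over all genes. All 3 SH045 libraries deviated towards long transcripts (rho 0.48, 0.18 and 0.43) and all 3 Vehicle libraries towards short ones (rho -0.52, -0.14 and -0.24). With this trend removed from each library, 10 genes were called, 5 higher and 5 lower in place of 10 and 5, and 7 of the 15 genes remained: Gata3, Ndrg1, Pigr, Fgg, Spink12, Rny3 and Btg1. The unadjusted p was then under 0.05 for 11.9% of genes (5.12% higher and 6.77% lower).

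**Figure D3:**
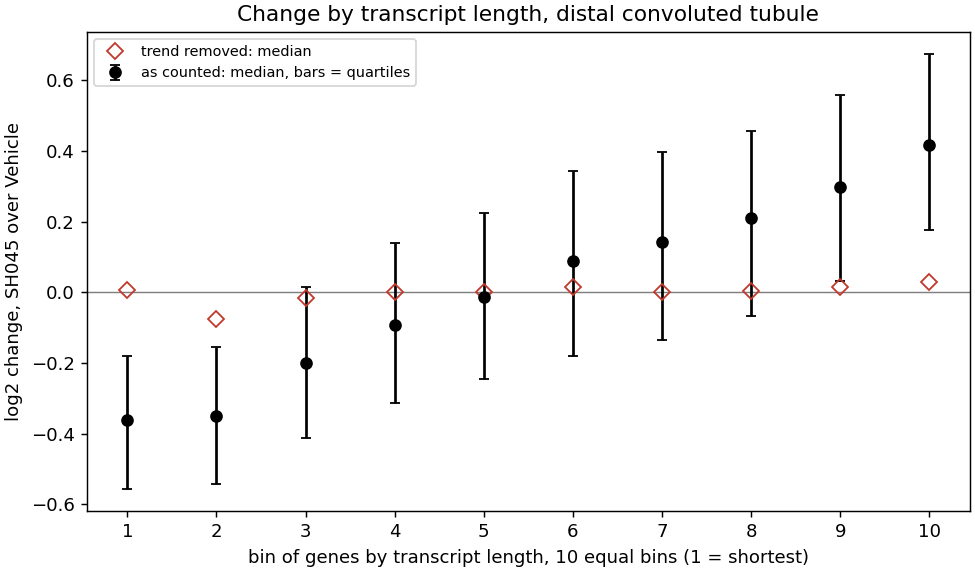
Median log2 change (SH045 over Vehicle) of the genes in 10 equal bins by transcript length in distal convoluted tubule barcodes, as counted (black, bars are quartiles) and with the per-library trend removed (red). The medians climb from -0.36 in the shortest bin to 0.42 in the longest, and lie between -0.08 and 0.03 once the trend is removed.

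Gata3 and Usp2 rose among regulators of the distal nephron. Gata3, a zinc-finger transcription factor of the distal nephron and collecting duct, lies on chromosome 2 (9857078 to 9890034, minus strand, GRCm38). It stood at 169, 161 and 181 CPM with SH045 and at 73.4, 98.1 and 83.6 CPM with Vehicle. Every SH045 library was above every Vehicle library, and the change was 1.97-fold (log2 0.97 ± 0.18 SE, adjusted p = 0.0417, edgeR). A Gata3 UMI was present in 50.7% of gated barcodes, 76.3% of the principal cell gate, 0.518% of the thick ascending limb gate and 1.30% of macrophage barcodes. Removing the length trend left its change at 0.96 (adjusted p = 0.0294, edgeR).

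Usp2, a deubiquitinating enzyme that acts on the epithelial sodium channel and on clock proteins, lies on chromosome 9 (44067021 to 44095627, plus strand). It stood at 98.7, 116 and 104 CPM with SH045 and at 55.5, 30.5 and 51.4 CPM with Vehicle. The groups were apart and the change was 2.44-fold (log2 1.29 ± 0.23, adjusted p = 0.0417, edgeR). With the length trend removed it was 1.18 and just missed the limit (adjusted p = 0.0547, edgeR). Sox6, an SRY-family transcription factor, rose 2.45-fold (47.5 to 59.9 CPM with SH045 and 16.3 to 22.9 with Vehicle), and missed the limit with the length trend removed (adjusted p = 0.138, edgeR).

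Ndrg1 and Pigr were the most abundant of the genes that rose. Ndrg1, a cytoplasmic protein induced by hypoxia and other stress, lies on chromosome 15 (66929318 to 66969640, minus strand). It stood at 616, 463 and 487 CPM with SH045 and at 232, 240 and 254 CPM with Vehicle, a narrow range in the latter, and rose 2.16-fold (log2 1.11 ± 0.19, adjusted p = 0.0415, edgeR). Pigr, the receptor that carries polymeric immunoglobulins across epithelia, lies on chromosome 1 (130826684 to 130852249, plus strand). It stood at 248, 229 and 298 CPM with SH045 and at 60.4, 125 and 140 CPM with Vehicle, and rose 2.32-fold (log2 1.21 ± 0.23, adjusted p = 0.0421, edgeR). Both kept their calls with the length trend removed (adjusted p = 0.0328 for each, edgeR).

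Fgg, the gamma chain of fibrinogen, lies on chromosome 3 (83007724 to 83015049, plus strand). It stood at 60.7, 68.5 and 36.0 CPM with SH045 and at 14.7, 24.9 and 18.1 CPM with Vehicle, and rose 2.76-fold (log2 1.46 ± 0.28, adjusted p = 0.0417, edgeR). It is a short transcript and rose against the length trend, to 1.68 once that was removed. Only 89 barcodes (10.8%) held a UMI of it, and the Vehicle level was close to that in macrophage barcodes, 18.1 CPM, where the libraries of the groups overlapped (5.93 to 17.2 CPM with SH045 and 15.3 to 29.2 with Vehicle).

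Tsc22d2, a leucine-zipper protein of the TSC22 family, Pds5a, a regulator of cohesin, Gprasp1, which sorts G-protein-coupled receptors, and Cyfip2, a part of the actin-regulating WAVE complex, completed the 10. They rose 2.49-, 2.42-, 2.72- and 2.02-fold, and their transcripts were long, 5843 to 9799 bases. All 4 missed the limit with the length trend removed (adjusted p from 0.108 to 0.140, edgeR). Cyfip2 was named after its values were seen, as were Rny3 and 2200002D01Rik.

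**Figure D4:**
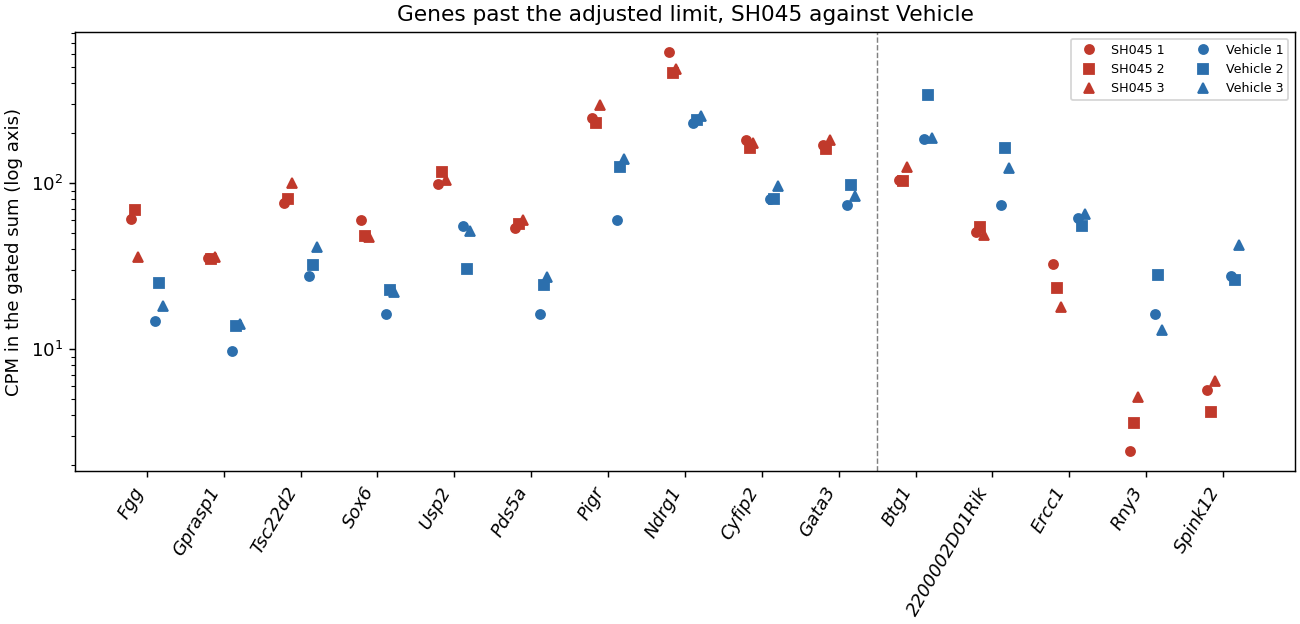
Level in CPM (log axis) of the 15 genes past the adjusted limit, in the summed distal convoluted tubule barcodes of each library (colour, group; symbol, replicate). The dashed line separates the 10 genes that were higher with SH045 from the 5 that were lower, and in none do the groups overlap.

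Spink12, a Kazal-type serine peptidase inhibitor, had the largest fall of the 15. It stood at 5.66, 4.17 and 6.42 CPM with SH045 and at 27.7, 25.9 and 42.3 CPM with Vehicle (log2 -2.59 ± 0.38, adjusted p = 0.0145, edgeR). These levels are 7, 7 and 5 UMIs against 17, 51 and 42, in 35 barcodes of 823, and a single barcode held 34 of the 129 UMIs. Spink12 was more frequent in the principal cell gate (29.4% of barcodes), where it fell too (log2 -1.55).

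Btg1, an antiproliferative gene, stood at 104, 103 and 126 CPM with SH045 and at 184, 338 and 187 CPM with Vehicle, and fell (log2 -1.12 ± 0.22, adjusted p = 0.0469, edgeR). Ercc1, a subunit of the nuclease of nucleotide excision repair, fell (18.0 to 32.4 CPM with SH045 and 54.9 to 65.5 with Vehicle, log2 -1.27 ± 0.25). The gene model 2200002D01Rik (log2 -1.25) and Rny3, a small Y RNA at 2.43 to 5.14 CPM against 13.1 to 28.0 (log2 -2.48), fell as well.

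Macrophage barcodes showed some of the same differences. There, 7 of the 15 genes had libraries that did not overlap in the direction found in the gate, beside 32.4% of the 8888 genes (39.6% did not overlap in either direction), and 8 overlapped. Of the lower genes these were Btg1, at 208 to 227 CPM with SH045 and 304 to 639 with Vehicle, above its level in the gate, Ercc1 (15.1 to 18.3 against 22.7 to 29.1) and 2200002D01Rik (9.01 to 13.1 against 15.8 to 37.6). Of the higher genes they were Pds5a, at 36.3 to 54.0 CPM against 23.3 to 30.1, near its level in the gate, Tsc22d2 (16.5 to 25.6 against 10.2 to 13.4), Usp2 (13.4 to 16.4 against 11.3 to 12.9) and Gprasp1 (5.93 to 8.15 against 2.85 to 5.01). The part of free RNA in the changes of the gate was not tested.

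Markers of other cell types also moved within the gate. The summed level of 5 fibroblast genes (Col1a1, Col1a2, Col3a1, Dcn and Pdgfra) was 605, 31.0 and 306 CPM with SH045 and 9.79, 2.54 and 2.01 CPM with Vehicle, with Pdgfra at 0 in all Vehicle libraries. The 5 endothelial markers summed to 6.42 to 49.4 CPM with SH045 and 1.01 to 5.08 with Vehicle. The 6 macrophage markers, 3 of which the gate limits, summed to 110 to 145 CPM with SH045 and 171 to 354 with Vehicle. The 6 proximal tubule markers (12.8 to 73.3 CPM against 37.3 to 287), the 4 T cell markers (7.15 to 24.3 against 9.15 to 45.7) and the 5 principal cell markers (127 to 215 against 97.6 to 170) overlapped. Upk1b and Upk3a of the urothelium and Ccr7 of dendritic cells were at 0. The part of the fibroblast and endothelial markers in the changes above was not tested. A stricter gate also asked for under 2 proximal UMIs (Lrp2 and Slc34a1), under 3 of Aqp2 and under 2 leukocyte UMIs (Ptprc and Tyrobp). It set no limit on fibroblast or endothelial genes. With it 10 genes were called, 3 higher and 7 lower. Of the 15 genes, 5 remained, 8 lost their call and the rest had no value to compare.

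The gene lists are described by their members at an unadjusted p under 0.05, to be read beside the 9.66% of all genes that were higher and the 10.1% that were lower at that limit, or 5.12% and 6.77% with the length trend removed. The NaCl transport machinery was measured with 21 genes, of which 20 were tested. None passed the adjusted limit, 7 were higher and 2 lower (5 and 2 once the length trend was taken out). The 20 had a median log2 change of 0.34, or 0.23 with that trend taken out. Slc12a3, which chose the cells, is 1 of the 7, and without it 6 of 19 were higher (median 0.34, and 0.27 with the trend removed). Atp1b1, the beta subunit of the sodium pump, stood at 5913, 7045 and 6577 CPM with SH045 and at 4642, 4003 and 4716 CPM with Vehicle (log2 0.55 ± 0.17, adjusted p = 0.104, edgeR). Its groups did not overlap, while those of Fxyd2, the gamma subunit, did (log2 0.01).

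Kcnj10, the basolateral potassium channel that sets the activity of the cotransporter, stood at 133, 121 and 121 CPM with SH045 and at 47.3, 93.0 and 77.6 CPM with Vehicle (log2 0.73, adjusted p = 0.0998, edgeR), and its partner Kcnj16 overlapped (log2 0.07). Klhl3 and Cul3, which together degrade WNK kinases, had log2 values of 0.68 and 0.49, and the kinases Wnk1, Wnk4, Stk39 and Oxsr1 lay between 0.15 and 0.40 with adjusted p of 0.311 or more in edgeR. Ppp1ca, a phosphatase subunit, had a log2 value of -0.68.

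Magnesium genes gave 2 higher and 0 lower of 10 tested at an unadjusted p under 0.05, with a median log2 change of 0.20 (0.05 with the length trend removed). Trpm7, the widely expressed kinase-channel that pairs with Trpm6, stood at 608, 599 and 721 CPM with SH045 and at 411, 418 and 443 CPM with Vehicle (log2 0.60, adjusted p = 0.104, edgeR), and at 0.19 once the trend was removed. Trpm6 stood at 61.5, 42.9 and 36.0 against 17.9, 38.6 and 34.2 CPM, which overlapped. Arl15, a GTPase that regulates magnesium transport, had a log2 value of 0.63 (adjusted p = 0.225, edgeR). Kcna1 had 0 UMIs in all 6 libraries.

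Calcium genes gave 6 higher and 2 lower of 18 tested, with a median of 0.29. Taking out the length trend left 2 higher and 1 lower and a median of 0.00. Itpr1 and Itpr2, calcium release channels of the endoplasmic reticulum, had log2 values of 0.96 and 0.89 (adjusted p = 0.0675 and 0.0727, edgeR), and their transcripts are very long. Trpv6 had 0.57, while Trpv5 (-0.22), S100g (-1.22) and Calb1 (-0.45) had values below 0 and overlapped. S100g varied most of these, from 266 to 2440 CPM with SH045 and from 1107 to 4037 CPM with Vehicle. Calm3, a calmodulin gene, was lower in every SH045 library (107 to 145 against 205 to 232 CPM, log2 -0.71, adjusted p = 0.0755, edgeR).

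In the list on the aldosterone and glucocorticoid response, 1 of 13 tested genes, Usp2, passed the adjusted limit. Scnn1a stood at 195, 180 and 132 CPM with SH045 and at 91.4, 100 and 128 CPM with Vehicle (log2 0.67 ± 0.20, adjusted p = 0.0998, edgeR), apart by the narrow gap between 132 and 128. Scnn1b (log2 0.19) and Scnn1g (0.13) overlapped, as did Hsd11b2 (0.50), Kcnj1 (0.04) and Klk1 (-0.78). Sgk1, the kinase that aldosterone induces, was sparse, at 0 to 7.74 CPM, and was not tested. Fkbp5, Tsc22d3 and Rasd1, which glucocorticoids induce, lay at 0.40, -0.76 and -0.36 with overlapping libraries.

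Of 21 distal transcription factors tested, 8 were higher and 1 lower at an unadjusted p under 0.05, and Gata3 passed the adjusted limit. The median was 0.32, and with the length trend removed it was 0.27, with 5 higher and 1 lower. Ppargc1a, a coactivator of mitochondrial genes, stood at 157, 116 and 148 against 53.8, 81.3 and 95.7 CPM (log2 0.83, adjusted p = 0.0811, edgeR). Sall3 (log2 0.88) and Esrrg (0.94), a nuclear receptor of oxidative tubule cells, had adjusted p of 0.0811 and 0.0998 in edgeR. In the list on epithelial junctions, 6 of 20 were higher and 2 lower (3 and 0 with the trend removed), led by Ctnnb1 (log2 0.78, adjusted p = 0.0811, edgeR).

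**Figure D5:**
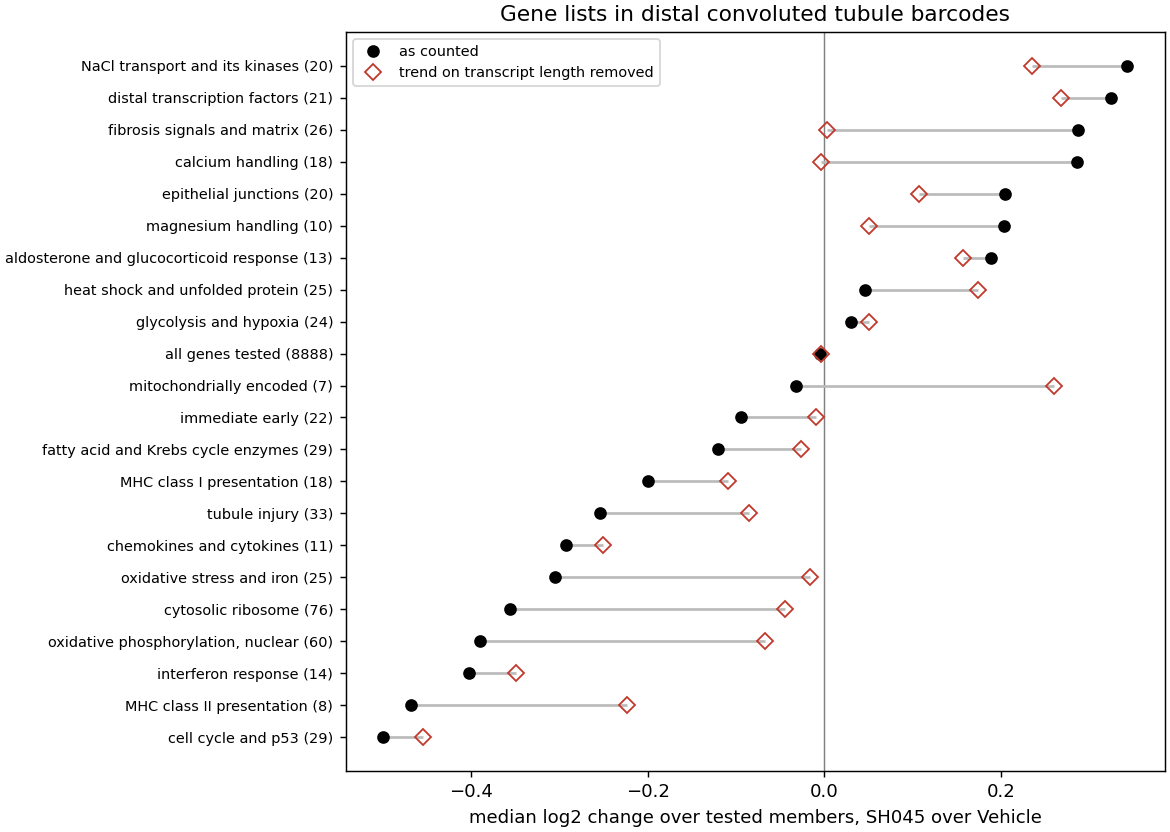
Median log2 change (SH045 over Vehicle) of the tested members of each gene list in distal convoluted tubule barcodes, as counted (black) and with the trend on transcript length removed (red), with the number of genes tested in parentheses. The lists of NaCl transport and distal transcription factors keep medians of 0.23 and 0.27, while those of calcium handling, fibrosis, ribosome and oxidative phosphorylation move to within 0.07 of 0.

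The lists of short transcripts lay below 0 as counted. Of 76 cytosolic ribosome genes, 32 were lower and 0 higher at an unadjusted p under 0.05 (median -0.36), against 6 lower with the length trend removed (median -0.04). For 60 nuclear genes of oxidative phosphorylation, 22 were lower (median -0.39), against 5 with the trend removed (-0.07). None of either list passed the adjusted limit. The 7 mitochondrially encoded genes had a median of -0.03 with 0 higher and 1 lower, and of 0.26 with 2 higher and 0 lower once the trend was removed.

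Of 33 tubule injury genes tested, 10 were lower and 1 higher at an unadjusted p under 0.05 and none passed the adjusted limit, with a median of -0.25 (-0.09 with the trend removed). Igfbp7, a secreted protein raised in injured tubules, stood at 1879, 2567 and 1974 CPM with SH045 and at 4086, 3263 and 3571 CPM with Vehicle (log2 -0.77 ± 0.18, adjusted p = 0.0717, edgeR). Anxa2 (log2 -0.78, adjusted p = 0.0811, edgeR) and S100a11 (-0.64) also had libraries that did not overlap. With the trend removed, 2 of the 33 were lower at that unadjusted limit.

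Fibrosis and matrix genes gave 8 higher and 0 lower of 26 tested (median 0.29), and 2 higher and 0 lower with the trend removed (median 0.00). Bmp7, a growth factor of the distal nephron, had a log2 value of 1.09 (adjusted p = 0.136, edgeR), and Vegfa 0.70 (adjusted p = 0.119, edgeR). Antigen presentation and interferon lists lay below 0: class I 0 higher and 4 lower of 18, class II 0 and 2 of 8, and interferon response 0 and 4 of 14. With the trend removed these counts were 0 and 1, 1 and 0, and 0 and 3. The sum of the 6 macrophage markers in the same gate was lower too (110 to 145 CPM with SH045 and 171 to 354 with Vehicle). The gate itself limits 3 of the 6. Of the 4 tested, 3 were lower in every SH045 library, as were 12.5% of all genes tested. These were Lyz2 and the gate genes C1qb and C1qc, whose levels the gate shaped. C1qa overlapped, as did Csf1r and Adgre1, which were not tested. The part of macrophage markers in these lists was not tested. Psmb8, an immunoproteasome subunit (log2 -0.87), and Bst2 (-0.93) were lower in every SH045 library, each at an adjusted p of 0.0717 in edgeR. Isg15 stood at 6.42 to 12.1 CPM with SH045 and 11.4, 39.1 and 21.2 CPM with Vehicle, which overlapped. Chemokines gave 0 higher and 2 lower of 11, Cxcl16 and Mif, and 1 and 1 with the trend removed.

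Cell cycle and p53 genes had the lowest median of the lists, -0.50, and kept -0.45 with the trend removed, with 0 higher and 7 lower of 29 at an unadjusted p under 0.05 (3 lower with the trend removed). H2afz, a histone variant, was lower in every SH045 library (107 to 159 against 189 to 290 CPM, log2 -0.76, adjusted p = 0.0818, edgeR), and Ccna2, a cyclin of S phase, overlapped (1.79 to 8.90 against 6.53 to 33.2 CPM). Oxidative stress and iron genes gave 3 higher and 8 lower of 25, among them Gclc, the rate-limiting enzyme of glutathione synthesis (log2 0.84, adjusted p = 0.0717, edgeR), and Ftl1, the ferritin light chain (-0.90). With the trend removed the list gave 3 higher and 2 lower, its median went from -0.30 to -0.02, and Ftl1 was at -0.49 (adjusted p = 0.630, edgeR). Heat shock and unfolded protein genes gave 4 higher and 2 lower of 25 (5 and 0 with the trend removed), with Atf4 and Atf5, factors of the integrated stress response, at 0.88 and 1.16. In the remaining lists, fatty acid and Krebs cycle enzymes gave 3 higher and 2 lower of 29, glycolysis and hypoxia genes 4 and 2 of 24 with Ndrg1 past the adjusted limit, and immediate early genes 1 and 2 of 22, shares near or below those of all genes for most of these counts.

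Trpc6, whose product SH045 is known to inhibit, was not detected in these cells. It had 0 UMIs in 823 gated barcodes, which allows a share of up to 0.365% of barcodes with a UMI, and 37 UMIs in all other kept barcodes. Trpc4, Trpc5 and Trpc7 had 0 UMIs as well, and Trpc1 was found in 28 barcodes (3.40%). None of these genes was tested.

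The neighbouring segments gave the test of whether a change was particular to these cells. Against the thick ascending limb (579 barcodes), 0 of 9170 genes had an effect of SH045 that differed in edgeR's interaction test at an adjusted p under 0.05, while 573 (6.25%) had an unadjusted p under 0.05. Of the 15 genes, 12 were tested within the thick ascending limb, where 0 passed the limit (0.118% of all genes tested there did) and 11 had the same sign. In the test of the difference itself, 8 of the 15 had an unadjusted p under 0.05 and none passed the adjusted limit. Because the 15 were chosen by their change in these same cells, 1 side of the difference, the count of 8 is no sign of particularity. Ndrg1 came closest to the adjusted limit (0.67 higher on the log2 scale, adjusted p = 0.210, edgeR). Without SH045 replicate 3 the difference passed the limit for Fgg (adjusted p = 0.00186, edgeR) and Ndrg1 (adjusted p = 0.0343, edgeR), and in the 5 fits that left out another library it passed for neither. Against the principal cell gate (477 barcodes, connecting tubule cells not kept out), 13 of 9645 genes differed (0.135%), none of them among the 15. In principal cells 13 of the 15 were tested, all 13 had the same sign and 5 passed the limit, which 1.17% of all genes tested there did: Btg1, Cyfip2, Ndrg1, Spink12 and Usp2. No share of all genes with the same sign is given here, so the counts of 11 and 13 have no background to be read beside. With all libraries, no difference from either neighbour passed the adjusted limit for any of the 15.

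The clearest differences from principal cells were in genes whose log2 values had opposite signs in the 2 cell types. Cd63, a tetraspanin of late endosomes and lysosomes, stood at 2031, 2329 and 1997 CPM with SH045 and at 3284, 2604 and 2772 CPM with Vehicle in the distal convoluted tubule, and at 2078 ± 218 against 1337 ± 196 CPM in principal cells. The difference of the effects was -1.05 ± 0.16 on the log2 scale (adjusted p = 0.000794, edgeR), and it held without any 1 library (adjusted p from 0.000371 to 0.0218). Within each cell type the change of Cd63 missed the limit: log2 -0.45 here (adjusted p = 0.179, edgeR) and 0.59 in principal cells (adjusted p = 0.118, edgeR). Its lower level with SH045 was not particular to these cells. In the thick ascending limb Cd63 stood at 2266 ± 116 CPM with SH045 and 2943 ± 317 with Vehicle (adjusted p = 0.399, edgeR). Its difference from that segment was -0.06 on the log2 scale (adjusted p = 0.985, edgeR). Rasl11a, a small GTPase of the Ras family, stood at 61.5, 66.1 and 77.1 against 57.1, 52.3 and 44.3 CPM here and at 142 ± 56.5 against 334 ± 32.7 CPM in principal cells. Its difference was 1.67 ± 0.27 (adjusted p = 0.00137, edgeR), and it also held without any 1 library (adjusted p from 0.000879 to 0.0370). Principal cells numbered 31 to 45 barcodes in the Vehicle libraries, so their levels rest on few cells.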

How the data were processed

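The authors deposited, per the file headers, 1 matrix of UMI counts per gene and barcode for each of 6 libraries, made with the Singleron GEXSCOPE kit for 6000 targeted cells, per the labels' protocols. The genome build was mm10, per the submitters' processing notes. An aligner, an annotation and a rule of cell calling are not given in the sources used here. Values were whole, and the shallowest barcode of each library held 2166 to 3175 UMIs.

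Gated UMI counts were summed per library and compared with edgeR 4.0.16 (TMM factors, filterByExpr, robust quasi-likelihood test, Benjamini-Hochberg limit 0.05, R 4.3.3). Interaction tests kept the library as a block. Transcript lengths and coordinates came from GENCODE M21, promoters from RefSeq (11 of the 15 called genes matched by symbol). The trend on log10 length was fitted per library by a natural spline (5 degrees of freedom) and removed as an offset. Where thinning is stated, barcodes were thinned to 2000 UMIs with Python 3.11.15. The shares of kept barcodes and all other detection percents are as counted, at unlike depths of the barcodes compared. On thinned barcodes the share of the gate was 2.79% ± 0.893 with SH045 and 1.60% ± 1.06 with Vehicle. Alternatives were DESeq2 1.42.0 and the settings given in the closing section. Named genes were the gate genes and markers, members of the transport and hormone lists, the 8 largest called changes each way at 20 CPM or more, up to 4 members of each other list by unadjusted p, TRPC genes, and the 5 smallest p of each interaction test.

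The cells, the 22 gene lists and the tests were chosen with earlier results of these data known. Tested on simulated data for this comparison (8888 genes), the fit recovered 95% of genes changed 4-fold and 62% of genes changed 2-fold, and called 16 of 8688 unchanged genes. Those counts held no trend on transcript length, which the real data had, and 100 genes were changed at each fold. The recovery is therefore not the power of the real comparison. The interaction test recovered 74% and 18%, with the second cell type simulated at the levels and depth of the distal convoluted tubule sums. The real sums of both neighbours were smaller in every library, at 179889 to 344301 UMIs for principal cells with Vehicle. This recovery therefore does not describe the real interaction tests. Values of some list members are not reported here.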

Additional observations from a re-analysis of the deposited data

Results flagged for a closer look

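In 13 genes the effect of SH045 differed between distal convoluted tubule and principal cells, by edgeR's interaction test with adjustment over 9645 genes, and the 5 with the smallest p are given here. The difference of the log2 changes, distal convoluted tubule minus principal cells, was -1.05 for Cd63, 1.67 for Rasl11a, 1.11 for Klf6 (an immediate early transcription factor, adjusted p = 0.0145), 1.42 for Cyr61 (a matricellular protein, adjusted p = 0.0146) and -5.98 for Ifit1 (an interferon-induced gene, adjusted p = 0.0146). Klf6 stood at 180, 222 and 283 CPM with SH045 and at 175, 141 and 123 CPM with Vehicle in the distal convoluted tubule, and at 280 ± 37.5 against 370 ± 76.8 CPM in principal cells (SD, n = 3). Its difference missed the limit without SH045 replicate 2, SH045 replicate 3 or Vehicle replicate 2 (adjusted p up to 0.102, edgeR). Cyr61 overlapped between the groups in the distal convoluted tubule and lost its call without SH045 replicate 2, SH045 replicate 3, Vehicle replicate 1 or Vehicle replicate 2 (adjusted p up to 0.267, edgeR). Against the thick ascending limb, where 0 of 9170 genes differed, the differences of Cd63 and Cyr61 were -0.06 and -0.02 (adjusted p = 0.985 and 0.999, edgeR). The value of Ifit1 rested on Vehicle replicate 2, which held 55.9 CPM while the other 5 libraries held 0 to 6.47 CPM, and it lost its call without that library or without SH045 replicate 2 (adjusted p up to 0.943, edgeR).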

How the results depend on the processing

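The 15 calls became 280 without the low-count filter, 29 with a mitochondrial limit of 20% and 150 with DESeq2's test (48 higher, 102 lower). Of the 15 genes, 8 were among these 150, 0 lost their call, and the rest had no value to compare. A minimum of 3175 UMIs a barcode, a setting chosen after seeing the data, as was leaving out shared barcodes, gave 4 calls. Leaving out 1 library gave 0 to 43 calls, as listed by library in the report. With DESeq2 size factors, at least 5 Slc12a3 UMIs, or without the top doublet scores there were 15, 17 and 16 calls. Against the thick ascending limb, the 0 genes (edgeR, 573 at an unadjusted p under 0.05) became 28 without the filter, 2 with the length trend removed, 1 at the 20% mitochondrial limit, and 0 to 21 without 1 library. Against principal cells, the 13 genes became 7 with DESeq2 size factors, 37 without the filter, 7 at the 20% mitochondrial limit and 4 to 13 without 1 library. The share of barcodes was 1.21 percentage points higher with SH045 and stayed higher, by 0.506 to 2.11 points, without 1 library, but was -4.24 points as a share of distal barcodes.

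With the replicate number as a replicate block there were 15 calls, 12 higher and 3 lower, and 5 of the 15 genes among them. Deviations of same-numbered libraries from their group means correlated at -0.13, -0.21 and 0.13, and not every library correlated best with its own number, so the numbers were not taken to pair the mice. Depth limits genes such as Rny3 and Spink12, which rest on few UMIs.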
